A study of Mus musculus with 6 samples.

Results

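The genes of the proteasome were examined in regulatory T (Treg) cells with and without OGT, the enzyme that attaches O-linked N-acetylglucosamine (O-GlcNAc) to nuclear and cytosolic proteins. Members were taken by symbol, as every gene named *Psma*, *Psmb*, *Psmc*, *Psmd*, *Psme*, *Psmf* or *Psmg* followed by a number, with pseudogene symbols left out. This gave 50 of the 24420 genes in the table, of which 48 passed the filter on low counts. The symbol rule also took in *Psmc3ip*, which encodes a cofactor of meiotic recombination and is no proteasome subunit.

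RNA was sequenced from YFP+ Treg cells sorted, after enrichment on CD4 beads, from the lymph nodes of 6 female C57BL/6 mice. All 6 mice carried *Foxp3* YFP-Cre/wt, a Cre fusion expressed from the *Foxp3* locus on 1 of the 2 X chromosomes. The 3 OGT-sufficient mice were *Ogt* wt/fl and the 3 OGT-deficient mice were *Ogt* fl/fl, and the labels give no age (the study's methods give 6 to 12 weeks for its mice other than the knockout males and their controls). The study describes the OGT-deficient females as healthy. The control cells thus carry Cre and a floxed allele, and the sources used here do not state whether that allele sits in cis with Cre. The total count lay between 3375454 and 4103552 per mouse, and the ribosomal RNA gene *Rn45s* took 24.2% to 37.1% of it. OGT-sufficient replicate 3 stood apart, with at least 1 count in 18346 genes, where the rest had 14412 to 15197 such genes. CPM here is a gene's count divided by the library size that edgeR's TMM method gives, on the usual counts-per-million scale. *Ogt* had 150, 170 and 251 CPM in the OGT-sufficient mice and 84.0, 67.0 and 96.0 CPM in the OGT-deficient mice, so the groups did not overlap (log2 fold change -1.21, standard error 0.21, unadjusted p = 0.000301, adjusted p = 0.191 by edgeR's quasi-likelihood test). The Treg marker *Foxp3* was present in every mouse, at 229, 299 and 189 CPM in the OGT-sufficient and 283, 249 and 291 CPM in the OGT-deficient group.

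The 26S proteasome degrades proteins tagged with ubiquitin. Its 20S core is a barrel of alpha and beta rings, with the cutting sites inside on 3 kinds of beta subunit, and the 19S cap recognises ubiquitin, unfolds the substrate with a ring of ATPases and feeds it into the core. Lymphocytes replace the constitutive cutting subunits with the inducible immunoproteasome subunits *Psmb8*, *Psmb9* and *Psmb10*, whose cuts favour peptides for MHC class I, and the ATPase Rpt2, encoded by *Psmc1*, is a known substrate of OGT.

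The members differed little between the genotypes, and none passed the adjusted threshold. Of the 48 members tested, 2 (4.17%) had an unadjusted p under 0.05, *Psmb2* and *Psmc5*, against 7.10% of the 10949 genes tested. Both were higher in OGT-deficient Treg cells, a direction in which 3.09% of all genes had such a p. At an FDR of 0.1, 0 members and 0.0274% of all genes passed, by edgeR's quasi-likelihood test with Benjamini-Hochberg adjustment. At an unadjusted p under 0.05 the count was 1 without OGT-sufficient replicate 3, OGT-deficient replicate 1 or OGT-deficient replicate 2, against 6.92%, 7.11% and 4.15% of all genes. It was 3 without OGT-sufficient replicate 1 or 2, against 7.37% and 7.78%, and 5 without OGT-deficient replicate 3, against 6.59%. DESeq2 also called 0 members at this FDR, where it called 38 of the 10949 genes tested. At an unadjusted p under 0.05 it called 0 members, against 4.13% of all genes. All OGT-deficient samples lay above all OGT-sufficient samples for 5 members (10.4%), namely *Psmb2*, *Psmc2*, *Psmc5*, *Psmd8* and *Psme2b*, against 5.72% of all genes. The opposite order was found for 0 members, against 7.48% of all genes.

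The median log2 fold change, OGT-deficient over OGT-sufficient, was 0.08 over the 48 members and -0.02 over all genes tested. It was above 0 for 33 members (68.8%), against 47.3% of all genes, and the members ranged from -0.30 to 0.40. The median standard error was 0.15 for members and 0.20 for all genes. For 29 members (60.4%) the 95% interval of the fold change lay wholly within 1.5-fold in either direction, against 42.6% of all genes, so larger differences fell outside the interval for most members but not for the others.

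**Figure D1:**
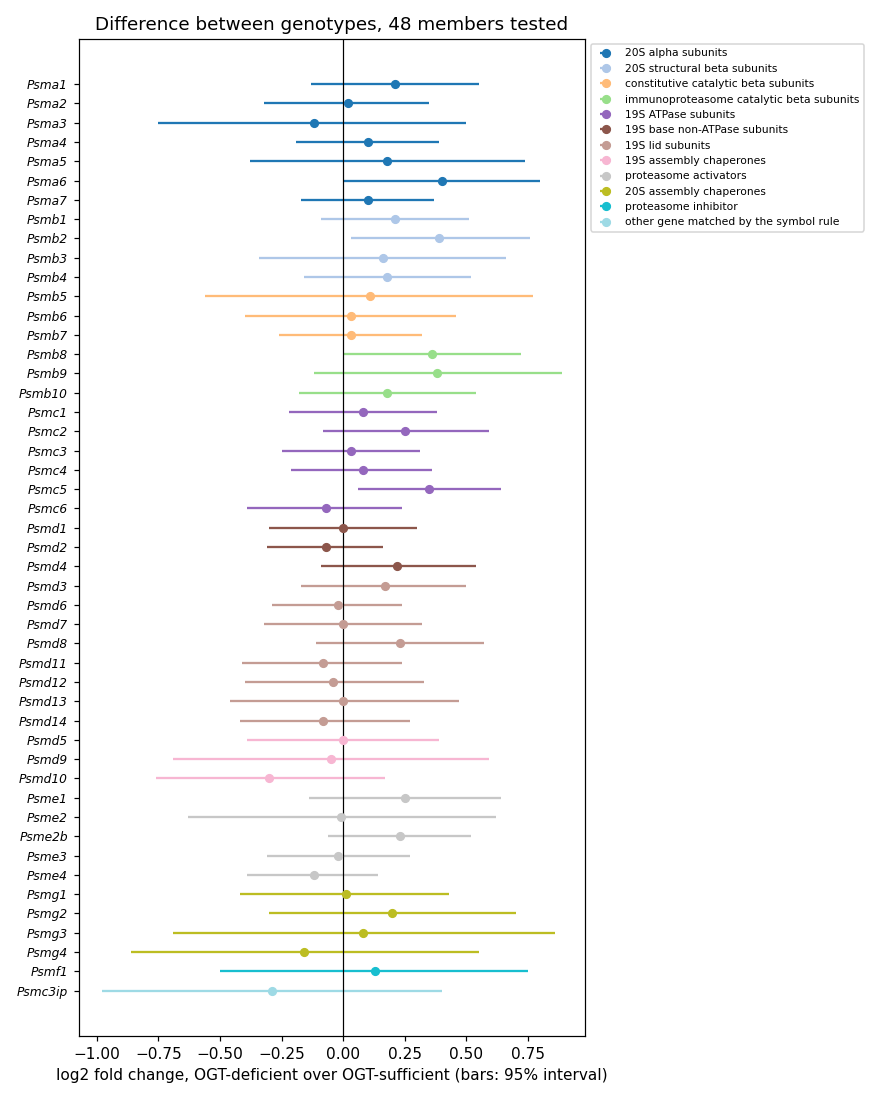
Log2 fold change of each of the 48 members tested (horizontal axis, OGT-deficient over OGT-sufficient), ordered and coloured by role, with bars for the 95% interval. The points lie between -0.30 and 0.40, and the bars of *Psmb2* and *Psmc5* lie above 0 as a whole.

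The size of the median moved with the mice included. OGT-sufficient replicate 3 was the lowest of the 6 samples for 25 of the 48 members, and its median deviation from each gene's mean was -0.21 on the log2 scale. The other OGT-sufficient mice had medians of 0.03 each, and the OGT-deficient replicates 1, 2 and 3 had 0.09, 0.09 and -0.04. These values were not taken over all genes tested, so they do not set the members apart from other genes. Without OGT-sufficient replicate 3 the median log2 fold change of the members was 0.03, with 26 members above 0, while the median of all genes was 0.00. Without OGT-sufficient replicate 1 the members had 0.18, with 39 above 0, and without replicate 2 they had 0.14, with 38 above 0, where the medians of all genes were 0.03 and 0.02. When OGT-sufficient replicate 3 was left out, the same 5 members (10.4%) were higher in OGT-deficient mice without overlap, and so were 10.4% of all genes. Summed levels of B cell markers were 331 CPM in this mouse against 88.5 to 156 CPM in the others, and those of erythroid markers were 733 CPM against 179 to 397 CPM. Treg and CD4 T cell markers summed to 2070 CPM in this mouse against 2740 to 3070 CPM in the others. The part of these cells in the members' levels was not tested. In such bulk samples, fewer cells of a type and less RNA per cell cannot be told apart.

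**Figure D2:**
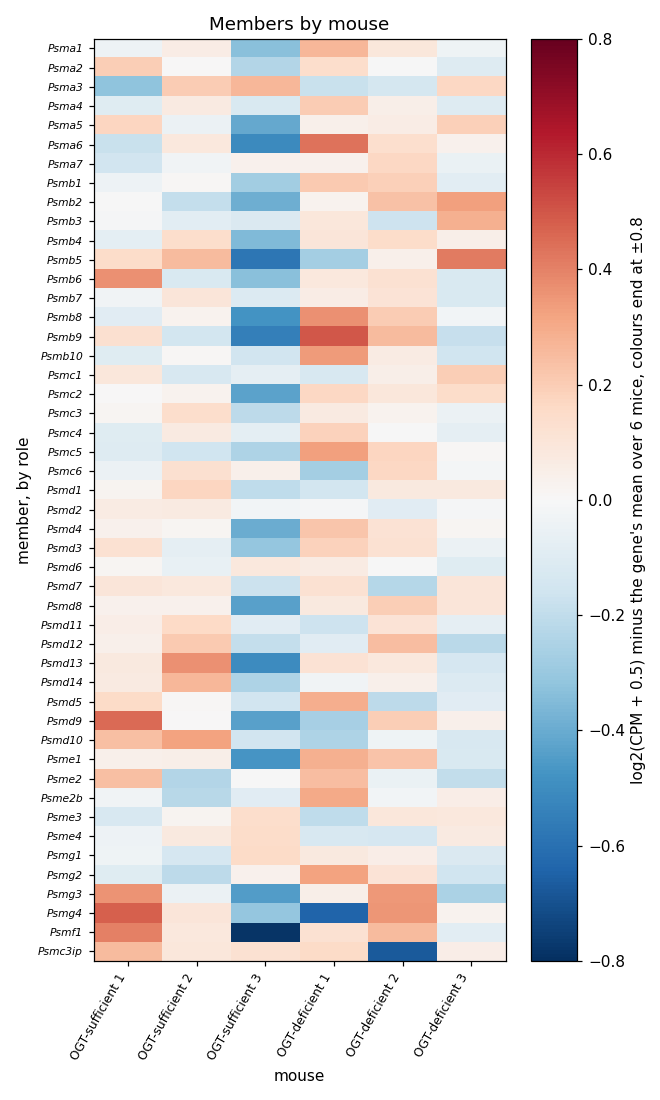
Level of each member (rows, by role) in each mouse (columns) as log2(CPM + 0.5) minus the gene's mean over the 6 mice. Blue cells are concentrated in OGT-sufficient replicate 3, the lowest sample for 25 of the 48 members. The matching share of all genes was not counted.

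Over all 50 members, the summed level was 2780, 2850 and 2370 CPM in OGT-sufficient replicates 1, 2 and 3, and 3010, 2950 and 2730 CPM in the OGT-deficient replicates. The groups overlapped, and the lowest sum was that of OGT-sufficient replicate 3. The members held 0.354% to 0.454% of the counts outside *Rn45s*. The summed level of the 20S subunits was 837, 866 and 697 CPM against 1000, 945 and 836 CPM, and that of the 17 ATPase, base and lid subunits of the 19S cap was 1260, 1310 and 1070 CPM against 1280, 1290 and 1240 CPM. Both sums overlapped between the genotypes.

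The alpha subunits form the outer rings of the core and hold its gate. Of the 7 tested, 6 had a log2 fold change above 0, with a median of 0.10. *Psma6* had the largest difference of all members, with 58.0, 69.5 and 45.9 CPM in OGT-sufficient and 88.9, 72.1 and 67.1 CPM in OGT-deficient mice. The groups overlapped between OGT-sufficient replicate 2 and OGT-deficient replicate 3, and the log2 fold change was 0.40 (standard error 0.18, unadjusted p = 0.0521, adjusted p = 0.699 by edgeR), with 0.27 without OGT-sufficient replicate 3 or OGT-deficient replicate 1. At the other end, *Psma3* had a log2 fold change of -0.12 (95% interval -0.75 to 0.50), on 6.81 ± 1.53 CPM in OGT-sufficient and 6.25 ± 0.92 CPM in OGT-deficient mice (SD, n = 3 each). *Psma8*, the alpha subunit of the testis, had at most 3 counts in any mouse and was not tested.

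The structural beta subunits complete the inner rings without cutting proteins. All 4 had a log2 fold change above 0, with a median of 0.20. *Psmb2*, on chr4:126677637-126709715 (plus strand, GRCm38.p6), had 105, 91 and 81 counts in OGT-sufficient and 111, 131 and 135 counts in OGT-deficient mice, or 27.9, 24.4 and 21.2 against 28.5, 33.0 and 35.2 CPM. The groups did not overlap, though OGT-sufficient replicate 1 and OGT-deficient replicate 1 were nearly level. Its log2 fold change was 0.39 (standard error 0.16, 95% interval 0.03 to 0.76, unadjusted p = 0.0373, adjusted p = 0.673 by edgeR), and 0.31 without OGT-sufficient replicate 3. The unadjusted p stayed under 0.05 in 6 of 14 alternative settings. It did not with DESeq2, edgeR's exact test, library size only or a block for the replicate number. Nor did it without OGT-sufficient replicate 2 or 3 or OGT-deficient replicate 2 or 3. *Psmb3* had the smallest difference of the 4, 0.16 (95% interval -0.34 to 0.66).

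The constitutive cutting subunits *Psmb5*, *Psmb6* and *Psmb7* carry the chymotrypsin-like, caspase-like and trypsin-like activities. *Psmb5* had 11.2, 12.1 and 6.55 CPM in OGT-sufficient and 8.22, 10.3 and 13.6 CPM in OGT-deficient mice. The groups overlapped throughout, and the log2 fold change of 0.11 had a wide 95% interval, from -0.56 to 0.77. *Psmb6* and *Psmb7* both stood at 0.03, with intervals of -0.40 to 0.46 and -0.26 to 0.32. For both of these, but not for *Psmb5*, a 1.5-fold difference lay outside the interval.

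The immunoproteasome subunits all had a log2 fold change above 0, with a median of 0.36, and 0 of the 3 had an unadjusted p under 0.05. *Psmb8*, the inducible counterpart of *Psmb5* on chr17:34198195-34201454 (plus strand), had 166, 181 and 127 CPM in OGT-sufficient and 228, 205 and 175 CPM in OGT-deficient mice. Of the OGT-deficient mice, replicates 1 and 2 lay above every OGT-sufficient mouse and replicate 3 did not (log2 fold change 0.36, standard error 0.16, unadjusted p = 0.0507, adjusted p = 0.699 by edgeR, and 0.23 without OGT-sufficient replicate 3). *Psmb9*, the counterpart of *Psmb6* on chr17:34182030-34187330 (minus strand), had 39.7, 32.7 and 24.6 against 51.4, 43.3 and 31.8 CPM. Its groups overlapped (log2 fold change 0.38, standard error 0.22, unadjusted p = 0.118, adjusted p = 0.754 by edgeR), and the log2 fold change was 0.22 without OGT-deficient replicate 1, 0.23 without OGT-sufficient replicate 3 and 0.59 without OGT-sufficient replicate 1. *Psmb10*, the counterpart of *Psmb7*, had 33.0, 35.7 and 31.7 against 45.0, 37.0 and 31.6 CPM, with OGT-deficient replicate 1 the highest and replicate 3 level with the lowest control (log2 fold change 0.18, standard error 0.16, and 0.04 without OGT-deficient replicate 1). An exon of *Psmb9* overlaps *Tap1* on the other strand, with 12.5% of its 50-base windows shared, and *Psmb8* overlaps an antisense transcript. The strand setting of the counting is not given in the sources used here, so reads of such partners cannot be told apart. *Psmb11*, the thymoproteasome subunit of cortical thymic epithelium, had at most 2 counts in any mouse.

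**Figure D3:**
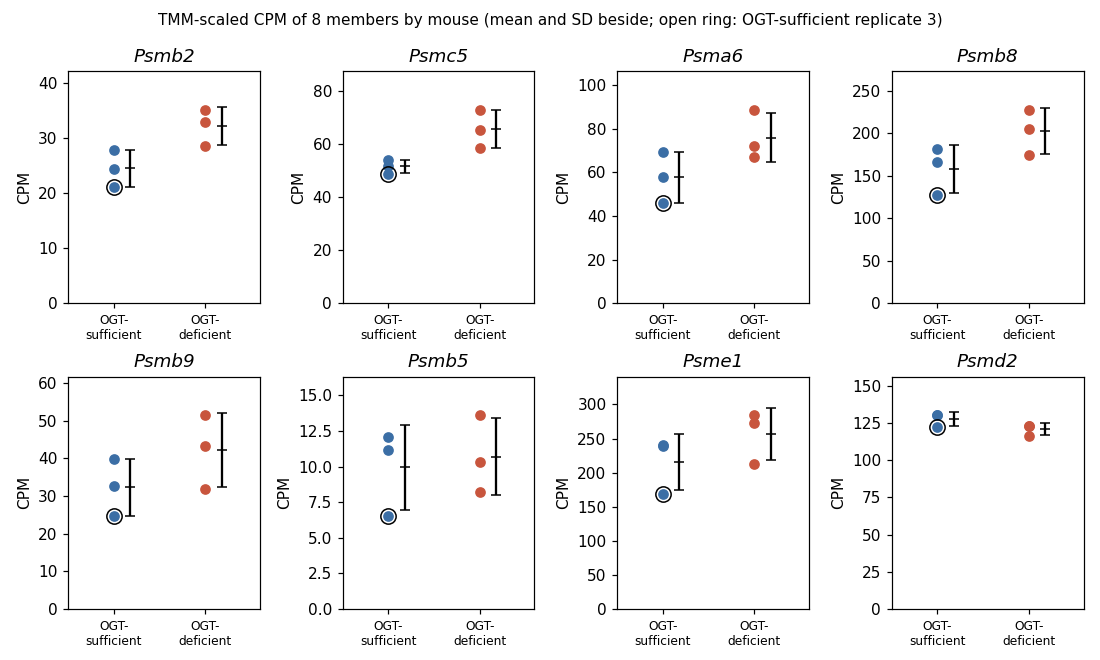
TMM-scaled CPM (vertical axis, from 0) of 8 members in each mouse by genotype, with the mean and SD of n = 3 beside the points and a ring around OGT-sufficient replicate 3. *Psmb2* and *Psmc5* are without overlap. *Psma6*, *Psmb8*, *Psmb9* and *Psme1* overlap with a higher OGT-deficient mean, and *Psmd2* hardly varied.

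The exchange of cutting subunits was followed as the log2 ratio of each inducible subunit to its constitutive counterpart, from counts per kb of transcript with 0.5 added to each count. Windows shared with other genes' transcripts make up 57.1% of *Psmb5* and 28.1% of *Psmb7*, the latter shared with *Nek6* on the other strand. The part of shared reads in the ratios was not tested. *Psmb8* over *Psmb5* was 3.02, 3.03 and 3.39 in OGT-sufficient and 3.92, 3.43 and 2.82 in OGT-deficient mice. These values spread from below to above the control range (difference 0.24, exact two-sided permutation p = 0.6). *Psmb9* over *Psmb6* was -1.10 ± 0.12 against -0.78 ± 0.24 (SD, n = 3 each, exact permutation p = 0.2), and *Psmb10* over *Psmb7* was -0.52 ± 0.02 against -0.39 ± 0.19 (SD, n = 3 each, exact permutation p = 0.1). For *Psmb10* over *Psmb7* the mice had -0.52, -0.54 and -0.50 against -0.17, -0.50 and -0.49. OGT-deficient replicates 2 and 3 were thus nearly level with the controls. With 3 mice in each group the smallest two-sided p is 0.1, so none of the 3 ratios could pass 0.05. The mean of the 3 log2 ratios was 0.44, 0.51 and 0.58 in OGT-sufficient and 1.07, 0.71 and 0.44 in OGT-deficient mice. OGT-deficient replicate 3 shared the lowest value with OGT-sufficient replicate 1, and the difference of 0.23 was within the spread of the OGT-deficient group (SD 0.32, n = 3). Without OGT-deficient replicate 1 the difference was 0.07, and without OGT-deficient replicate 3 it was 0.38.

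**Figure D4:**
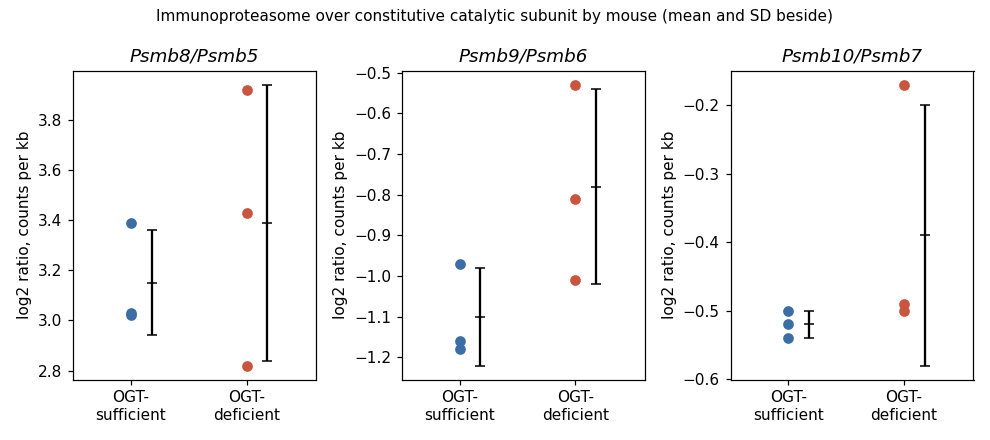
Log2 ratio of each immunoproteasome subunit to its constitutive counterpart (vertical axes, counts per kb) in each mouse by genotype, with the mean and SD of n = 3 beside the points. The OGT-deficient mice are spread more widely than the controls in all 3 pairs, and OGT-deficient replicate 1 is the highest in each.

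The 6 ATPases of the 19S base unfold substrates, and 5 of them had a log2 fold change above 0 (median 0.08). *Psmc5*, on chr11:106256185-106263112 (plus strand), had 203, 193 and 186 counts in OGT-sufficient and 284, 259 and 224 counts in OGT-deficient mice, or 54.0, 51.8 and 48.8 against 73.0, 65.3 and 58.5 CPM. The groups did not overlap, with OGT-sufficient replicate 1 and OGT-deficient replicate 3 the nearest, and none of its windows is shared with another gene. Its log2 fold change was 0.35 (standard error 0.13, 95% interval 0.06 to 0.64, unadjusted p = 0.0239, adjusted p = 0.614 by edgeR). Without OGT-deficient replicate 1 it was 0.26 and the unadjusted p was no longer under 0.05. The unadjusted p of *Psmc5* stayed under 0.05 in 11 of 14 alternative settings, and not with DESeq2 or with library size only. *Psmc2* was also without overlap, at 52.4, 53.4 and 38.8 against 58.8, 55.7 and 57.9 CPM (log2 fold change 0.25, standard error 0.15, unadjusted p = 0.119, adjusted p = 0.755 by edgeR). *Psmc1*, which encodes the OGT substrate Rpt2, had 63.3, 54.2 and 56.4 against 54.2, 61.5 and 68.1 CPM. Its groups overlapped, and the log2 fold change of 0.08 had a 95% interval of -0.22 to 0.38, so a 1.5-fold difference lay outside it. *Psmc6* had the lowest value of the ATPases, -0.07 (95% interval -0.39 to 0.24).

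The other 19S subunits bind and deubiquitinate substrates. In the base, *Psmd4*, a ubiquitin receptor, had 143, 141 and 106 against 163, 151 and 141 CPM (log2 fold change 0.22, standard error 0.14, unadjusted p = 0.145, adjusted p = 0.772 by edgeR, and 0.11 without OGT-sufficient replicate 3), and the scaffold subunit *Psmd2* had the smallest SD of log2 CPM within groups of all members (0.049), at 127 ± 4.59 against 121 ± 3.80 CPM (SD, n = 3 each). In the lid, 3 of 8 subunits lay above 0 and the median was -0.01. *Psmd8* was the highest of them, with 76.4, 76.5 and 55.1 against 78.6, 85.4 and 79.9 CPM. Its groups did not overlap but 2 of the control mice were close to the OGT-deficient range (log2 fold change 0.23, standard error 0.15, unadjusted p = 0.154, adjusted p = 0.775 by edgeR), and without OGT-sufficient replicate 3 the log2 fold change was 0.10. *Psmd14*, the deubiquitinase of the lid, had -0.08 (95% interval -0.42 to 0.27), as did *Psmd11* (-0.41 to 0.24).

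The assembly factors and activators showed no common direction. The 19S chaperones *Psmd5*, *Psmd9* and *Psmd10* had a median of -0.05, with the lowest log2 fold change of all members in *Psmd10*, gankyrin, at 15.7, 16.6 and 11.8 against 11.0, 12.8 and 12.0 CPM. That gene overlapped through OGT-sufficient replicate 3 (log2 fold change -0.30, standard error 0.20, unadjusted p = 0.182, adjusted p = 0.785 by edgeR, and -0.17 without OGT-sufficient replicate 2), and it is X-linked. The 4 chaperones of the 20S core ran from -0.16 in *Psmg4* to 0.20 in *Psmg2*, and *Psmf1*, the inhibitor PI31, had 0.13 with an interval of -0.50 to 0.75. *Psmc3ip*, the recombination cofactor, had -0.29 (95% interval -0.98 to 0.40). None of these had an unadjusted p under 0.05.

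Among the activators, *Psme1* and *Psme2* encode the alpha and beta parts of the interferon-inducible PA28 ring, and *Psme3* and *Psme4* encode the nuclear activators PA28 gamma and PA200. *Psme1* had 239, 240 and 168 against 284, 272 and 213 CPM, with overlap through OGT-deficient replicate 3 (log2 fold change 0.25, standard error 0.17, unadjusted p = 0.179, adjusted p = 0.785 by edgeR, and 0.11 without OGT-sufficient replicate 3). *Psme3* and *Psme4* had -0.02 and -0.12. *Psme2* had 6.92, 4.83 and 5.77 against 6.94, 5.54 and 4.96 CPM, whereas *Psme2b*, annotated as its retrogene, had 88.6, 77.5 and 84.9 against 112, 88.9 and 94.0 CPM. *Psme2b* was without overlap (log2 fold change 0.23, standard error 0.13, unadjusted p = 0.105, adjusted p = 0.754 by edgeR), but it should be read with *Psme2*. The coding sequences of the pair are 717 bases long and differ at 5 positions (99.3% identical), and 59.3% of the 50-base windows of *Psme2* and 69.3% of those of *Psme2b* occur in another gene's transcripts. Bases 424 to 543 of each coding sequence, counted from the A of the start codon and taken from GENCODE M21 (GRCm38), are shown because reads that miss the differing positions are the same in both genes. The capitals mark the 3 positions at which the sequences differ.
*Psme2* (chromosome 14, minus strand): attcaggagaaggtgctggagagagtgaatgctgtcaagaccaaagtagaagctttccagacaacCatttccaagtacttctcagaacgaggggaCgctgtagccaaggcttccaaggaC
*Psme2b* (chromosome 11, minus strand): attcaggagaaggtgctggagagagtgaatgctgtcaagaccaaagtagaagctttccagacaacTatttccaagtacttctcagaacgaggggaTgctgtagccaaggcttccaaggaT
Counted together, the pair had 95.5, 82.4 and 90.7 CPM in OGT-sufficient and 119, 94.5 and 98.9 CPM in OGT-deficient mice, with OGT-sufficient replicate 1 above OGT-deficient replicate 2. The separation of *Psme2b* was thus lost in the sum.

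Levels were compared between members per kb of the principal transcript, as the mean CPM per kb over the 6 mice. *Psme1* was the highest at 212 CPM per kb, followed by *Psmb8* at 111, *Psme2b* at 109 and *Psmd4* at 106, which lay within each other's range over mice, and *Psma7* at 80.6. The immunoproteasome subunit *Psmb8* stood above its constitutive counterpart *Psmb5*, at 11.5 CPM per kb, whereas *Psmb9* and *Psmb10*, at 27.6 and 27.2, stood below *Psmb6* and *Psmb7*, at 52.2 and 37.1. The lowest members tested were *Psma3* at 2.29, *Psmd9* at 3.69 and *Psmc3ip* at 4.36 CPM per kb. Among the alpha subunits, which the core holds in equal number, *Psma3* and *Psma5* (6.11 CPM per kb) lay far under *Psma7*. Windows shared with other genes' transcripts made up 22.0% of *Psma3*, 55.4% of *Psma5*, 55.8% of *Psmb3* and 57.1% of *Psmb5*, and 11 of the 50 members had over 20% of such windows while 25 had none. How the authors' counting treated shared reads is not given in the sources used here, the principal transcript need not be the one these cells use, and the part of either in these levels was not tested.

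**Figure D5:**
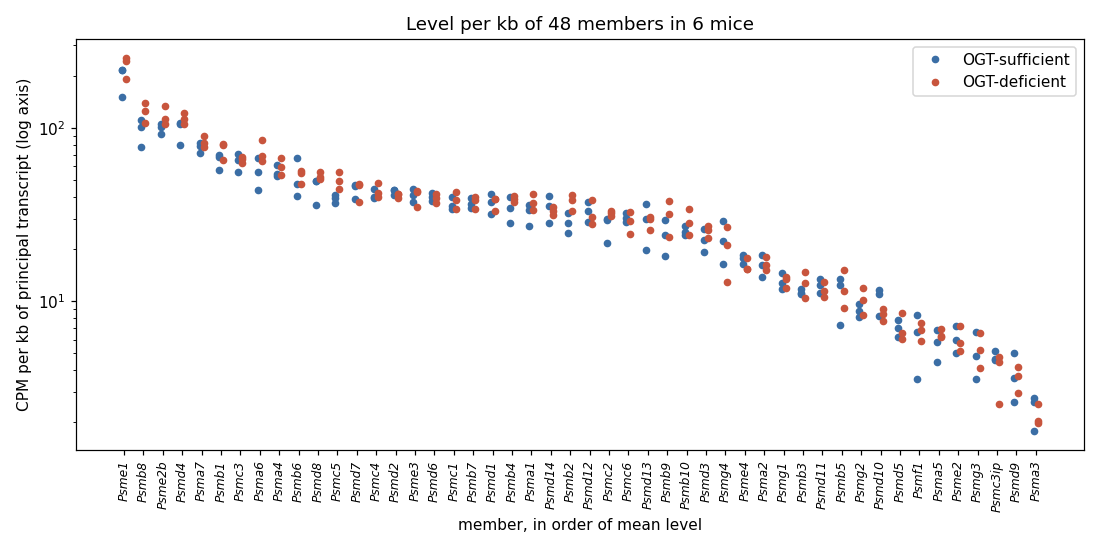
Level of each of the 48 members tested in each mouse (vertical log axis, CPM per kb of the principal transcript), in order of the mean over 6 mice, with OGT-sufficient mice in blue and OGT-deficient mice in red. The members span from 2.29 (*Psma3*) to 212 (*Psme1*) CPM per kb, and the colours mix within nearly every member.

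Promoters were searched for 3 motifs in the 250 bases before each annotated start (RefSeq, GRCm38.p6), on both strands, and 42 of the 50 members had 45 such windows. The antioxidant response element core TGACNNNGC, which NRF1 and NRF2 bind in proteasome promoters, was in 5 member windows (11.1%) against 10.2% of all 32851 windows. The GAS core TTCNNNGAA, bound by STAT dimers, was in 2 (4.44%) against 7.02%, and an interferon response core (GAAA, any 2 bases, GAAA), which can share bases with the GAS core, was in 3 (6.67%) against 2.98%. These shares rest on few windows and are a description of letters, not of binding. Of the cutting subunits, *Psmb5* and *Psmb6* had the antioxidant core and *Psmb8* the GAS core. *Psmb7*, *Psmb9* and *Psmb10* were not among the members with a match, which also holds for any member that had no window. The other member with the GAS core was the chaperone gene *Psmg1*. The windows of *Psmb5* and *Psmb8*, a constitutive and an inducible cutting subunit of the same position, are shown as 60 bases around the match, with the match in capitals.
*Psmb5*, chr14:54618009-54618068, minus strand, antioxidant response element core: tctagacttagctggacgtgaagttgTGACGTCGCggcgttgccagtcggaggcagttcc
*Psmb8*, chr17:34198072-34198131, plus strand, GAS core: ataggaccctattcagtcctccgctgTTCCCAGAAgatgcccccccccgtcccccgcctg
The first base of the match lay 47 bases before the annotated start in *Psmb5* and 97 bases before it in *Psmb8*.

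The other genes of the pathway were taken from lists of partners and of antigen processing genes. Of 17 partners and regulators of the proteasome tested, 0 had an unadjusted p under 0.05 by edgeR, and their median log2 fold change was 0.01. These included *Nfe2l1*, the transcription factor of the proteasome bounce-back response (0.03), and the assembly factor *Pomp*, which had 55.1, 62.8 and 44.8 against 64.5, 73.1 and 65.5 CPM and was without overlap (log2 fold change 0.32, unadjusted p = 0.058, adjusted p = 0.704 by edgeR).

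Of 13 genes of MHC class I antigen processing, which take up the peptides made by the proteasome, 2 had an unadjusted p under 0.05, both higher in OGT-deficient Treg cells, against 3.09% of all genes in that direction, and the median log2 fold change was 0.11. *H2-K1* had 1190, 1340 and 1050 against 1730, 1570 and 1300 CPM (log2 fold change 0.36, standard error 0.15, unadjusted p = 0.0438, adjusted p = 0.685 by edgeR). *H2-D1* had 170, 172 and 122 against 221, 232 and 171 CPM (log2 fold change 0.43, standard error 0.17, unadjusted p = 0.0330, adjusted p = 0.668 by edgeR). Both overlapped through OGT-deficient replicate 3, and class I heavy chain genes share sequence, so their split is uncertain. *Tap1*, the peptide transporter beside *Psmb9*, had 0.11.

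Markers of other cells were present in the libraries. The summed level of 12 macrophage markers was 4310, 3670 and 1950 CPM in OGT-sufficient and 1420, 5170 and 5970 CPM in OGT-deficient mice, and 0 of the 12 had an unadjusted p under 0.05 by edgeR. OGT-deficient replicate 1, with the highest *Psmb8*, *Psmb9* and *Psme1*, had the lowest macrophage sum. The next lowest sum, 1950 CPM, was that of OGT-sufficient replicate 3, with the lowest levels of the same genes. The 7 B cell markers had a median log2 fold change of -0.91, with 0 above 0, and *Cd79b* alone had an unadjusted p under 0.05 (-0.71, unadjusted p = 0.0311, adjusted p = 0.668 by edgeR). The 5 dendritic cell markers tested had a median of -0.05, with 2 above 0, and *Zbtb46* alone had such a p (-0.75, unadjusted p = 0.0429, adjusted p = 0.685 by edgeR). CD8 T cell markers summed to 12.0 to 26.5 CPM. The 8 Treg and CD4 T cell markers had a median of 0.19, with 7 above 0 and *Ikzf2* at -0.26. *Tnfrsf18* alone had such a p, at 59.6, 63.3 and 30.7 against 83.2, 76.6 and 67.9 CPM (log2 fold change 0.57, unadjusted p = 0.0439, adjusted p = 0.685 by edgeR), with OGT-sufficient replicate 3 again the lowest sample. The part of these lists in the members' values was not tested.

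The genes with the pattern most like that of the members were sought among the 10901 other genes tested, by Pearson's r with the mean log2 CPM of the members over the 6 mice. That mean was 5.35, 5.33 and 5.08 in OGT-sufficient and 5.37, 5.36 and 5.28 in OGT-deficient mice, so its range was set by OGT-sufficient replicate 3. The 5 nearest were *Ndufs8* (r = 0.997), *Bola2* (0.996), *Txndc12* (0.996), *Rnu12* (0.995) and *Eef1b2* (0.994), given as a description over samples of the same 6 libraries. *Ndufs8*, a subunit of respiratory complex I, had 24.0, 22.0 and 10.2 against 23.4, 24.2 and 19.3 CPM, lowest in the same mouse.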

How the data were processed

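The authors trimmed paired-end reads with Trimmomatic 0.33 and aligned them with Bowtie2 2.2.4.0 to mm10. For the gene quantification the submitters' processing notes name featureCounts and the study's methods name Cuffquant. They deposited whole-number counts per gene symbol, treated here as raw counts. The p-values, FDR, fold changes and means of their own comparison, in the same table, were not used. Members and gene lists were chosen with earlier results of these data known.

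Counts were tested in R 4.3.3 with edgeR 4.0.16 (TMM scaling, filterByExpr with a minimum count of 10, quasi-likelihood test, Benjamini-Hochberg adjustment over 10949 genes, n = 3 mice per group). Standard errors were derived from the log2 fold change and its F statistic. DESeq2 1.42.0 was an alternative. The test was first run on simulated counts. Scaled library sizes were 3727491 to 3968979, so 3 counts are 0.756 to 0.805 CPM. Replicates differed beyond counting noise (chi-square per degree of freedom 3.31 to 22.0). Each sample was taken as 1 mouse, which the labels do not state, so p-values measure only the spread between these samples, which may be technical. Lengths are principal transcripts of GENCODE M21.

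Genes named are *Ogt*, members with an unadjusted p under 0.05, the highest and lowest of each role, the cutting subunits, *Psmc1*, *Psme1*, *Psme2*, untested members, listed genes with an unadjusted p under 0.05 and the 5 genes most like the members. Others were named after their values were seen. 1 list of related genes is not reported here.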

Additional observations from a re-analysis of the deposited data

How the results depend on the processing

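The number of members at an unadjusted p under 0.05, 2 as reported, is given here with the share of all genes tested in brackets. It was 0 with DESeq2 (4.13%), 0 with library size only (5.91%) and 1 with edgeR's exact test (6.38%). It was 4 with DESeq2's size factors in edgeR (7.09%) and 2 with library size without *Rn45s* (7.15%). It was 5 without a low-count filter (6.13%) and 3 with at least 10 counts in every sample (7.23%). Leaving out 1 replicate at a time gave between 1 and 5 (4.15% to 7.78%). Same-numbered replicates did not deviate together (correlations of their deviations -0.28, 0.01 and -0.12), and with the replicate block the number was 4 (6.2%). At an FDR of 0.1 it was 0 under every alternative run, and over all genes the number at that FDR went from 0 to 131. The median log2 fold change of the members stayed between 0.03 and 0.18 in all of them. With library size only, the median over all genes was -0.06 and 26 of the members lay above 0. The number of members without overlap, higher in OGT-deficient samples, was between 5 and 15 when single replicates were dropped, an alternative chosen after seeing the data. The largest value came without OGT-deficient replicate 3, when the share of all genes was 11.9%, and it was 9 and 10 without OGT-sufficient replicates 1 and 2, when the shares of all genes were 10.1% and 11.1%. Of 26 named genes, 16 kept their direction in every setting. *Psme2* turned to 0.01 with DESeq2 and with its size factors and to 0.04 without a filter, *Psmb7* to -0.01 and *Psmd5* to -0.03 with library size only, and *Psmd5* to -0.01 with the replicate block and to -0.00 with library size without *Rn45s*. With each replicate left out, *Psma3* lay between -0.26 and 0.00, *Psmb5* between -0.11 and 0.30, *Psmb6* between -0.10 and 0.30, *Psmb7* between -0.01 and 0.13, *Psmc6* between -0.15 and 0.04, *Psmd11* between -0.14 and 0.01, *Psmd5* between -0.16 and 0.14, *Psme2* between -0.15 and 0.17, *Psmf1* between -0.14 and 0.44 and *Psmg4* between -0.38 and 0.11. The mean log2 ratio of inducible to constitutive cutting subunits differed by 0.28 from summed counts per kb and by 0.23 with the replicate block. The causes were not tested.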
